A study of Mus musculus with 8 samples.

Results

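Collagen and extracellular matrix genes were examined for R-loops, structures in which a transcript pairs with its template DNA strand and leaves the other strand single. A list of 53 matrix genes was used, and a peak belonged to the group when the first gene symbol of its row was on the list. Of the 53 genes, 52 are autosomal, and 18 of these carried 89 of the 27837 autosomal peaks. The peaks come from DNA-RNA immunoprecipitation sequencing (DRIP-seq), in which the S9.6 antibody pulls down RNA:DNA hybrids from sonicated genomic DNA. The cells were mouse muscle satellite cells (MuSCs), the stem cells of skeletal muscle, isolated from limb and trunk muscle with magnetic beads and grown in culture. Control libraries (Ctrl) had the genotype Pax7CreERT/Suv4-20h1WT and mutant libraries (Kmt5b sKO) had Pax7CreERT/Suv4-20h1KO. Suv4-20h1 is Kmt5b, which encodes an enzyme that methylates lysine 20 of histone H4. Both genotypes therefore carried Pax7CreERT, a tamoxifen-dependent recombinase expressed from the Pax7 gene, so recombination is limited to cells that express Pax7. Each genotype had 3 S9.6 libraries and 1 input library, and the inputs were not used here.

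Collagens are trimeric proteins that form fibrils, networks or filaments outside the cell, and they are embedded with elastic microfibrils, proteoglycans and adhesive glycoproteins in the extracellular matrix. Basement membrane collagens and perlecan surround each muscle fibre and the stem cell beneath it, while fibrillar collagens fill the interstitium and come largely from fibroblasts. Satellite cells also make matrix of their own, and proteins such as fibronectin and collagen V are known components of their niche. R-loops form during transcription and are favoured by guanine-rich transcripts and by slow or stalled polymerases.

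The value of a peak is its score, the S9.6 signal summed over the peak, scaled to Drosophila spike-in reads and rounded. Total scores over all union peaks were 3893768 to 4729631 in Ctrl, with Ctrl replicate 2 highest, and 4699599 to 4930261 in Kmt5b sKO. The single peak of the targeted gene Kmt5b scored 412, 658 and 420 in Ctrl and 440, 449 and 484 in Kmt5b sKO (limma adjusted p = 0.679), and an R-loop score does not check a deleted exon. The study describes the replicates as biological replicates from separate mice, which the sample labels do not state. In a bulk preparation, more cells of a type and more hybrids per cell cannot be told apart.

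The centres of 7 peaks are shown because they carry the contrast described below. The first 4 belong to peaks that were higher in Kmt5b sKO, and the last 3 to peaks that were not called. These last are long peaks of Col5a1 and Hspg2 and the Fbn1 peak with the lowest log2 fold change. Each is the central 200 bases of its peak, 5′ to 3′ on the strand of the gene, in build GRCm38 (mm10), and all 7 lie in introns of their gene in GENCODE vM21. Capitals mark runs of at least 3 G.
Col18a1, chr10:77061801-77062000, minus strand: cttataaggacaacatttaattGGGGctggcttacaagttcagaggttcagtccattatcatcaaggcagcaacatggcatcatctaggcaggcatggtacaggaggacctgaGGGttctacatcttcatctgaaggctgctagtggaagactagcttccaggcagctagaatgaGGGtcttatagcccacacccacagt
Col5a2, chr1:45440501-45440700, minus strand: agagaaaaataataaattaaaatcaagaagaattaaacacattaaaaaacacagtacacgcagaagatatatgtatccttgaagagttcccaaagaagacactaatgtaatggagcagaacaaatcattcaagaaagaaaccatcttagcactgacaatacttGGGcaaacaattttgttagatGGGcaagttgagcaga
Col12a1, chr9:79695501-79695700, minus strand: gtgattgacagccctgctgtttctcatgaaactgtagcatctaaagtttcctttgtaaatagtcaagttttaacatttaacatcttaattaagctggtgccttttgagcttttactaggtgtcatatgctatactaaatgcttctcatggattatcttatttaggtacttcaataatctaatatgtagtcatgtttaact
Thbs1, chr2:118120601-118120800, plus strand: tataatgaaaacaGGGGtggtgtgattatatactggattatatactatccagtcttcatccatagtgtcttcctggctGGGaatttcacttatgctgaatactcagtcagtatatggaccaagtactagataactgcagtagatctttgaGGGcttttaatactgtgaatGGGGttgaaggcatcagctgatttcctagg
Col5a1, chr2:27987701-27987900, plus strand: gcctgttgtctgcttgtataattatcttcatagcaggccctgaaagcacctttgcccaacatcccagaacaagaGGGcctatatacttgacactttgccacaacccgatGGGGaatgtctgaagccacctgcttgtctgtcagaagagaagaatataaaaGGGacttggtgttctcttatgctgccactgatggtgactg
Hspg2, chr4:137481601-137481800, plus strand: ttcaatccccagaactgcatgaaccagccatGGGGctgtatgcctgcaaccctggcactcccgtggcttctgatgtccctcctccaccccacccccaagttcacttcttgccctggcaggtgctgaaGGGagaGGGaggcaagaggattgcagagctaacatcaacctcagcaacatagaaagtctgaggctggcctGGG
Fbn1, chr2:125414301-125414500, minus strand: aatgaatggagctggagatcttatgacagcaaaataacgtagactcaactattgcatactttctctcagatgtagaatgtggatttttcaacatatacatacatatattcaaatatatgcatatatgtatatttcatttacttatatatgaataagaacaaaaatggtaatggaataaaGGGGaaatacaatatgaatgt
The Col12a1 window held 0 such runs, the Fbn1 window 1, the Col18a1 window 3 and the Hspg2 window 4. Of the Col18a1 window, 97.5% was soft-masked as repeat. A run of GGG on the gene strand occurred in the central window of 73 of the 85 tested matrix gene peaks (85.9%) and of 82.3% of the other gene-body peaks. Its complement CCC occurred in 78.8% and 78.3%. Among the matrix gene peaks that were higher in Kmt5b sKO, 14 of 18 windows held GGG, against 59 of 67 among the rest.

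Most matrix gene peaks were not called, and those that were called all rose. A peak was tested when its mean score was over 30, and called when the limma adjusted p was under 0.1 and the fold change over 1.5. The mean was over all 6 S9.6 libraries, so a peak could pass through high Kmt5b sKO scores alone. Among the called peaks this held for the 1000 bp Col8a1, 600 bp Col5a2 and Col4a2 peaks. Their Ctrl means were 17.7, 25.3 and 27.7, and their place among the tested peaks depended on the gain. Of the 85 tested peaks, 18 (21.2%) were higher in Kmt5b sKO, where 32.9% of all 25815 tested autosomal peaks were. None was lower, against a background of 0.883%. At an unadjusted p under 0.05, limma gave 2 matrix gene peaks lower (2.35%) and 27 higher (31.8%), against 3.29% and 42.8% of all tested peaks. In 28 of the 85 every Kmt5b sKO library lay above every Ctrl library (background 41.5%), and in 4, all in Fbn1, every Kmt5b sKO library lay below (background 3.81%). The median log2 fold change was 0.19 (quartiles 0.01 and 0.51), against 0.35 over all tested peaks. The 4 peaks that were not tested scored low, in Col12a1, Col5a1 and Col5a2.

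All 89 peaks lay in the gene body, meaning that the peak centre was inside the gene and over 1000 bp from its start, and none covered the annotated start of its gene. The matrix gene peaks were also long, with a median of 3600 bp against 2800 bp for the 20708 other gene-body peaks tested, of which 24.3% were higher. In both sets the share that rose was highest among the shortest peaks and lowest among the longest. Among peaks of 200 to 1200 bp, 6 of 9 matrix gene peaks were higher, against 59.1% of the other gene-body peaks. From 1400 to 2000 bp the values were 6 of 12 and 37.4%. From 2200 to 3000 bp they were 2 of 17 and 21.2%, and from 3200 to 5800 bp 3 of 21 and 11.6%. Of the 26 matrix gene peaks of 6000 bp or more, 1 was higher, against 4.0% of the others. Weighting the other gene-body peaks to the lengths of the matrix gene peaks gave 19.9%, which equals 16.9 peaks where 18 were counted. The count for the matrix genes was therefore close to that of gene-body peaks of like length.

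**Figure D1:**
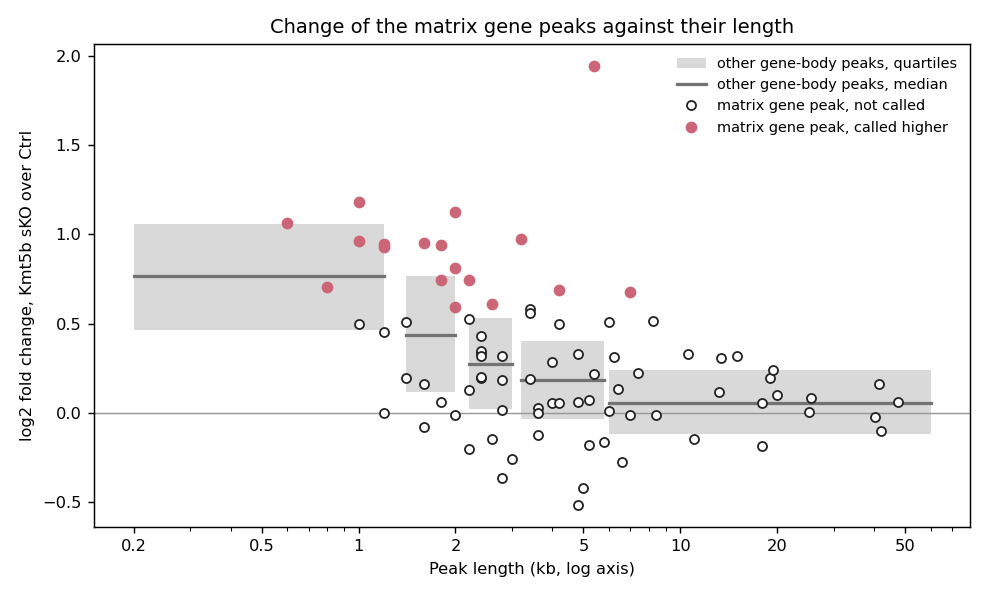
Log2 fold change (Kmt5b sKO over Ctrl) of the 85 tested matrix gene peaks against peak length in kb on a log axis. Filled points were called higher, open points were not called, and the grey bars and lines give quartiles and medians of the other gene-body peaks in 5 length classes, with the last class drawn to 60 kb only. The filled points lie mostly left of 3 kb, and Col18a1 stands alone near 2 at 5.4 kb.

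Summed over the peaks of each gene, 8 of the 18 genes were higher in Kmt5b sKO (background 29.3% of 8003 genes) and none was lower (background 0.262%, and limma gave 0 of the 18 lower at an unadjusted p under 0.05). These were Col18a1, Adamts12, Col8a1, Col12a1, Col4a2, Fn1, Thbs1 and Vcan. With a Ctrl mean of 27.7, Col4a2 passed the filter on a mean over 30 only through its Kmt5b sKO scores. The median log2 fold change over the 18 genes was 0.38, against 0.32 over all tested genes. Most genes that rose had peaks over a small share of their length. In 8 of the 18 genes, peaks covered up to 20% of the gene length, and 7 of these 8 were higher (Loxl1 was not). In the other 10, peaks covered more, and 1 of the 10, Thbs1, was higher. Among other protein-coding genes the shares were 42.8% of 3407 with up to 20% covered and 10.7% of 3923 with more. The cut at 20% was chosen after these values were seen. Peak lists of different samples were unified, so the covered share could include peaks that entered through Kmt5b sKO. The covered share is therefore not independent of the gain.

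**Figure D2:**
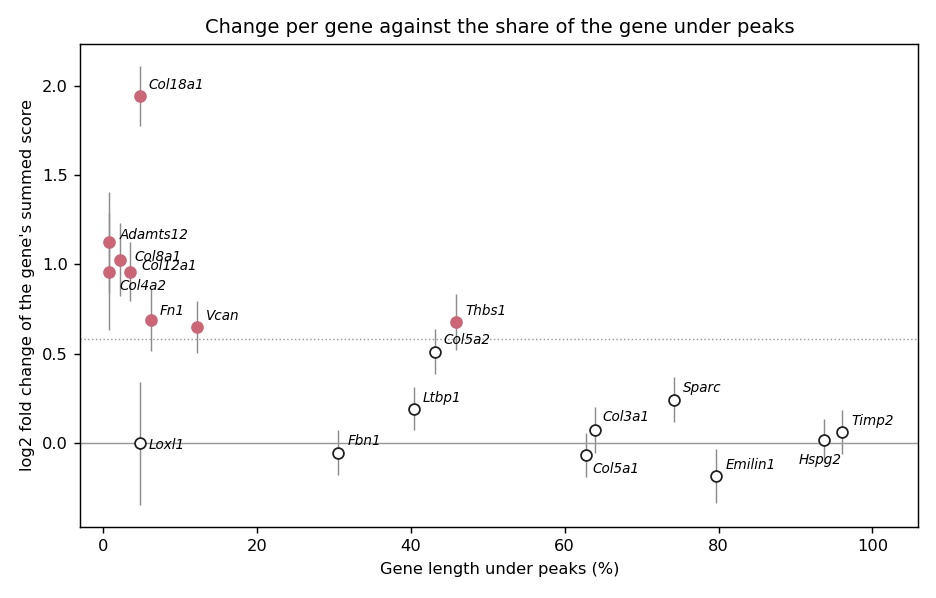
Log2 fold change of the summed score of each of the 18 genes (bars, ± 1 standard error of the limma fit) against the percent of the gene length under peaks. Filled genes were called higher and the dotted line marks a 1.5-fold gain. Genes with peaks over more than 60% of their length lie between −0.18 and 0.24.

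**Figure D3:**
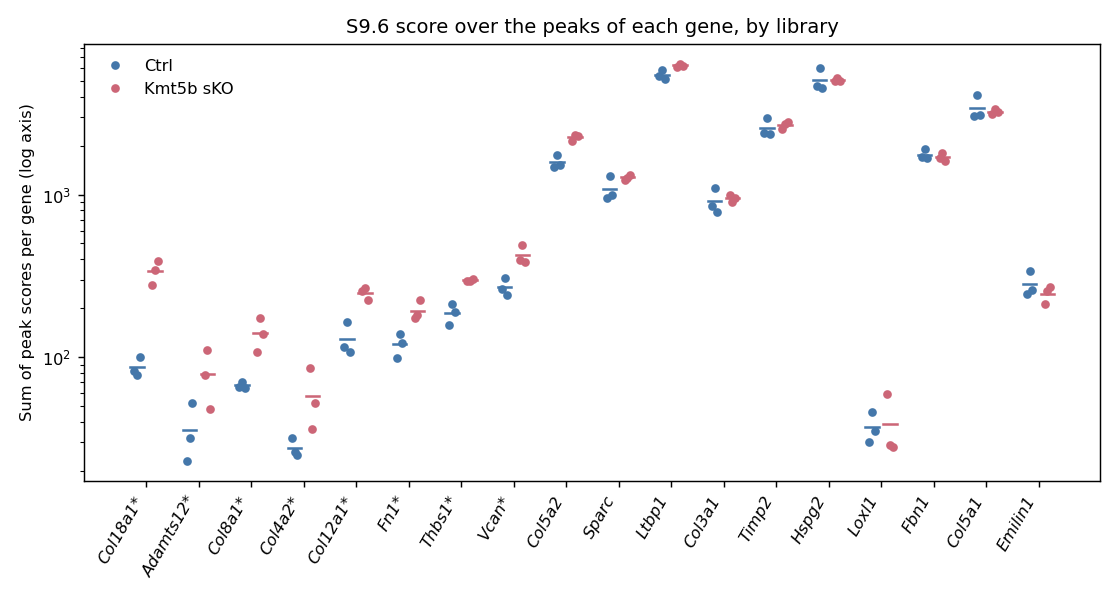
Summed score of each gene in each S9.6 library on a log axis, with Ctrl on the left and Kmt5b sKO on the right of each gene and lines at the group means. Asterisks mark the 8 genes called higher, which sit among the low sums, while Ltbp1, Hspg2, Col5a1 and Timp2 have the highest sums and were not called.

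The fibrillar collagens were represented by 3 of 8 genes, and the chains of collagen V, which is known to set fibril diameter, behaved differently from each other. Col5a1 (chr2:27886425-28039514) carried 14 peaks over 62.7% of its length, including a 42000 bp peak across 27 exons. Its summed score was 3038, 4092 and 3089 in Ctrl and 3122, 3343 and 3195 in Kmt5b sKO, and the log2 fold change was −0.07 (SE 0.12, limma adjusted p = 0.673). The Kmt5b sKO values all fell inside the Ctrl range, whose upper end was Ctrl replicate 2, and without that library the log2 fold change was 0.07. None of its 13 tested peaks was called, and their log2 fold changes ran from −0.28 to 0.33.

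Col5a2 (chr1:45374321-45503282), which encodes the partner chain, also carried 14 peaks. Its summed score was 1475, 1749 and 1528 in Ctrl and 2147, 2325 and 2290 in Kmt5b sKO. The groups did not overlap, and the log2 fold change was 0.51 (SE 0.12, limma adjusted p = 0.000284), short of the 1.5-fold threshold. Without Ctrl replicate 2 it was 0.585 and was called. All 12 tested Col5a2 peaks had a positive log2 fold change, 9 had every Kmt5b sKO library above every Ctrl library, and 4 were called. The clearest was chr1:45439000-45442199, in an intron near the middle of the gene, with scores of 83, 92 and 83 in Ctrl and 167, 175 and 167 in Kmt5b sKO. Its log2 fold change was 0.97 (SE 0.19, limma adjusted p = 8.11e-06). The others called were 600, 1200 and 2600 bp long and also outside exons, and the 600 bp peak near the 5′ end rose from 25.3 ± 10.2 to 52.3 ± 11.0 (SD, n = 3). The 2600 bp peak lost its call without Ctrl replicate 3, Kmt5b sKO replicate 1 or Kmt5b sKO replicate 2, at log2 fold changes of 0.539, 0.515 and 0.583.

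The difference between the chains was visible within each library, where the spike-in scale drops out. The summed Col5a2 score was 0.486, 0.427 and 0.495 of the Col5a1 score in Ctrl and 0.688, 0.695 and 0.717 in Kmt5b sKO. The ratio was higher in every Kmt5b sKO library, and it was not tested because the pair was chosen after its values were seen. It was present among short and long peaks. Among peaks up to 3000 bp the median log2 fold change was 0.61 in Col5a2 (5 peaks) and 0.04 in Col5a1 (6 peaks), and above 3000 bp it was 0.51 and −0.10 (7 peaks each). Base composition also differed, with a median GC content of 35.5% in the Col5a2 peaks and 51.9% in those of Col5a1, and its part in the difference was not tested. Col3a1, which encodes the main chain of type III collagen and lies beside Col5a2 on chromosome 1, had 2 peaks over 63.9% of its length and summed scores of 851, 1097 and 782 against 990, 900 and 954. Its groups overlapped and its log2 fold change was 0.07 (SE 0.13).

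**Figure D4:**
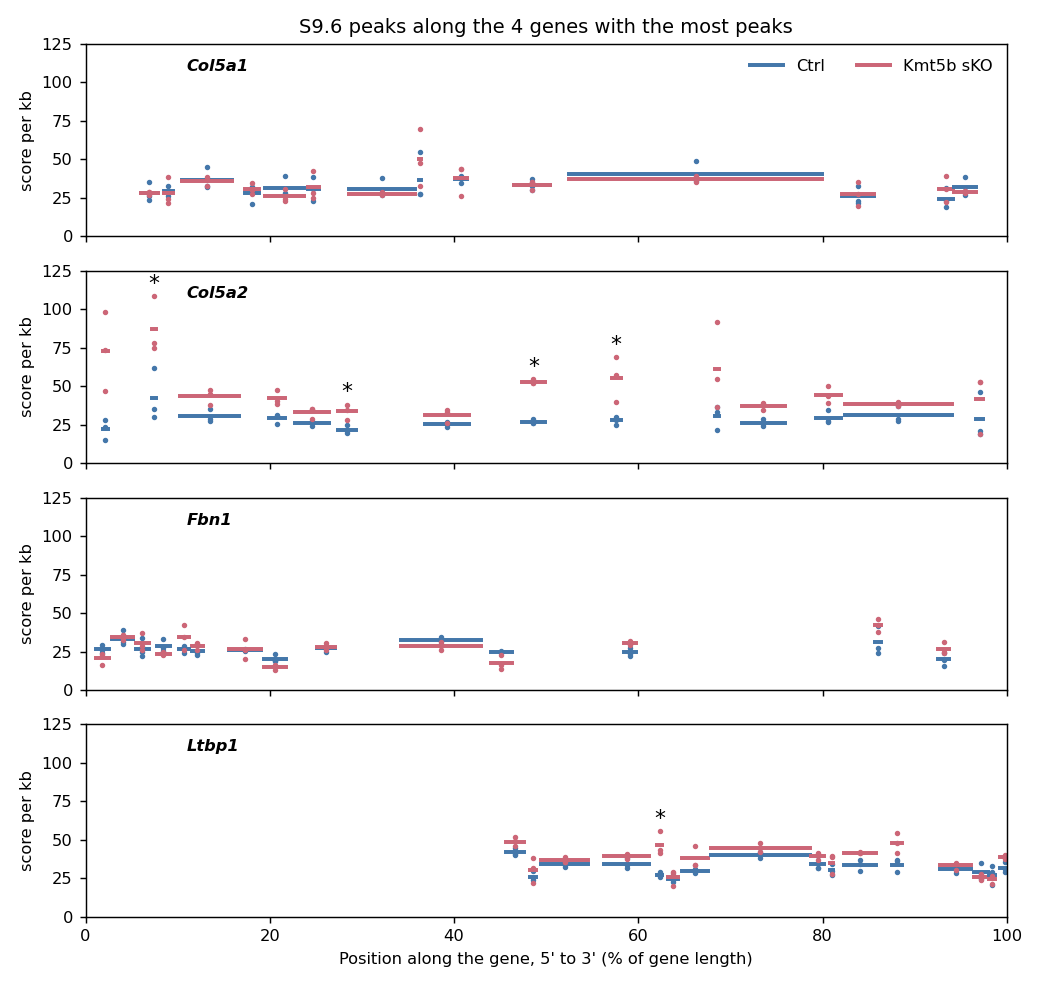
Score per kb of each peak along Col5a1, Col5a2, Fbn1 and Ltbp1, 5′ to 3′ in percent of gene length. Lines span the peak at the group mean, dots are the 3 libraries of a genotype and asterisks mark peaks called higher. Kmt5b sKO lines lie above Ctrl lines along the whole of Col5a2, and on or near them along Col5a1 and Fbn1.

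Elastic fibre and microfibril genes held the most peaks, 32 in 3 of 10 genes, and 1 was higher. Ltbp1 (chr17:75005568-75392512), which encodes a protein that tethers latent TGF-beta to the matrix, had the highest sum of any matrix gene. Its values were 5383, 5816 and 5164 in Ctrl and 6089, 6363 and 6210 in Kmt5b sKO. The groups did not overlap, but the log2 fold change was 0.19 (SE 0.12, limma adjusted p = 0.188). The most 5′ of the 16 Ltbp1 peaks was centred at 46.6% of the gene length, and 14 of the 16 had a positive log2 fold change. The called peak, chr17:75245600-75247799, scored 60, 64 and 57 in Ctrl and 122, 91 and 95 in Kmt5b sKO (log2 fold change 0.75, SE 0.22, limma adjusted p = 0.00338).

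Fbn1 (chr2:125300594-125507993) encodes fibrillin-1, the backbone of microfibrils, and was the only matrix gene with peaks whose Kmt5b sKO libraries all lay below the Ctrl libraries. Its sum was 1704, 1910 and 1673 in Ctrl and 1680, 1804 and 1608 in Kmt5b sKO, for a fitted change of −0.05 on the log2 scale (SE 0.12, limma adjusted p = 0.751). In 4 of its 14 peaks every Kmt5b sKO library lay below every Ctrl library. The lowest was chr2:125412000-125416799, which scored 115, 122 and 117 in Ctrl and 108, 65 and 79 in Kmt5b sKO. Its log2 fold change was −0.52 (SE 0.20, limma adjusted p = 0.0307), short of the fold threshold. Of the same 14 peaks, 8 had a positive log2 fold change, up to 0.45. The summed Ltbp1 score was 3.10 ± 0.0577 times the Fbn1 score in Ctrl and 3.67 ± 0.172 times in Kmt5b sKO (SD, n = 3), a description of a pair chosen after its values were seen. Emilin1, an elastin-associated glycoprotein gene, had 2 peaks over 79.7% of its length, summed scores of 246, 337 and 259 against 211, 257 and 270, and the lowest gene-level log2 fold change of the group, −0.18 (SE 0.15, limma adjusted p = 0.331). The longer Emilin1 peak also reached 970 bp into the neighbouring gene Khk.

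The basement membrane genes with peaks were Col18a1, Col4a2 and Hspg2, 3 of 7 listed. Col18a1 encodes the chain of collagen XVIII, whose C-terminal fragment is endostatin, and it showed the largest gain among the matrix genes. Its only peak, chr10:77059200-77064599, scored 82, 78 and 100 in Ctrl and 277, 344 and 392 in Kmt5b sKO. The lowest Kmt5b sKO library lay far above the highest Ctrl library, and the peak rose 3.85-fold (log2 fold change 1.94, SE 0.17, limma adjusted p = 9.9e-26). Per kb this was 16.0 in Ctrl, a density below that of all but 0.629% of protein-coding genes with peaks, and 62.5 in Kmt5b sKO. Peak lists of different samples were unified, so a region with low Ctrl signal could enter through Kmt5b sKO. The low Ctrl density is therefore not independent of the gain. The peak lay toward the 3′ end of the gene, centred at 91.5% of its length, and overlapped 5 exons that made up 7.85% of it. It was called under all 14 alternative settings, with log2 fold changes from 1.49 to 2.08 and limma adjusted p values up to 0.0012. At the gene level, limma without the variance trend gave an adjusted p of 0.00025, against 3.2e-28 with it. Of the 5400 bp of the peak, 1802 also lay in Slc19a1, a folate transporter gene on the opposite strand, including 1 exon. The table gives a score per peak with no strand, so signal from the Col18a1 and Slc19a1 transcripts cannot be told apart.

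Col4a2, which encodes a chain of the collagen IV network, had 1 peak of 1000 bp without an exon. It scored 32, 26 and 25 in Ctrl and 86, 36 and 52 in Kmt5b sKO (log2 fold change 0.96, SE 0.33, gene-level limma adjusted p = 0.0116). The groups did not overlap, but without Kmt5b sKO replicate 1 the log2 fold change was 0.635 and the gene was not called. Col4a1, which shares its promoter region with Col4a2, carried no peak. Hspg2 (chr4:137468769-137570630), the gene of perlecan, was covered by 5 peaks over 93.7% of its length. Its Ctrl density was 51.6 per kb, where the median protein-coding gene with peaks had 30.3. Its sum was 4649, 5970 and 4544 in Ctrl and 4981, 5241 and 4998 in Kmt5b sKO, and the log2 fold change was 0.02 (SE 0.12, limma adjusted p = 0.922). The Kmt5b sKO libraries fell inside the Ctrl range, and none of the 5 peaks was called.

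Of 7 network, beaded-filament and fibril-associated collagen genes, 2 carried peaks, and both rose in all their tested peaks. Col12a1 encodes the chain of collagen XII, which coats fibrils, and had 4 short intronic peaks over 3.51% of its length. Its sum was 116, 165 and 108 in Ctrl and 254, 268 and 226 in Kmt5b sKO, with no overlap (log2 fold change 0.96, SE 0.17, limma adjusted p = 2.04e-07). The peak at chr9:79694800-79696399 went from 52, 72 and 44 to 99, 109 and 113, a gain of 0.95 on the log2 scale (SE 0.22, limma adjusted p = 0.000201). Its 2 shorter tested peaks depended on single libraries. The 800 bp peak lost its call without Ctrl replicate 1, Ctrl replicate 3 or Kmt5b sKO replicate 1, at log2 fold changes of 0.603, 0.627 and 0.579, and the 1200 bp peak without Kmt5b sKO replicate 2, at 0.63. The untested 600 bp peak scored 10, 14 and 7 in Ctrl and 42, 24 and 17 in Kmt5b sKO. Col8a1, which encodes a short-chain network collagen, had 2 intronic peaks with sums of 66, 70 and 65 against 108, 173 and 139, again without overlap (log2 fold change 1.03, SE 0.20, limma adjusted p = 6.51e-06). Its 1000 bp peak overlapped between groups (12, 18 and 23 against 21, 69 and 44) and lost its call without Ctrl replicate 1 or Kmt5b sKO replicate 2.

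Vcan, the gene of the large proteoglycan versican, was the only autosomal gene of the proteoglycan group with peaks. Its 5 intronic peaks summed to 261, 308 and 241 in Ctrl and 397, 487 and 387 in Kmt5b sKO, with no overlap (log2 fold change 0.65, SE 0.15, limma adjusted p = 9.12e-05). Without Ctrl replicate 3 or Kmt5b sKO replicate 2 the log2 fold change was 0.57 or 0.544 and the gene was not called. The 3 called peaks were those nearest the 5′ end of the gene, at 4.26%, 7.58% and 14.8% of its length, and the strongest, chr13:89728600-89730599, went from 60.3 ± 8.50 to 107 ± 13.4 (SD, n = 3). The peak at 4.26% lost its call without Ctrl replicate 2, Ctrl replicate 3 or Kmt5b sKO replicate 2 (log2 fold changes of 0.583, 0.552 and 0.507), and the peak at 7.58% without Ctrl replicate 1 or Kmt5b sKO replicate 2 (0.502 and 0.496). The most upstream of them overlapped an annotated antisense transcript by 341 bp.

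Among the adhesive and matricellular genes, Fn1 and Thbs1 were called higher and Sparc was not called. Fn1 encodes fibronectin, and its single peak of 4200 bp scored 99, 139 and 122 in Ctrl and 175, 181 and 224 in Kmt5b sKO (log2 fold change 0.69, SE 0.17, limma adjusted p = 0.000444). Thbs1 encodes thrombospondin-1, and its 7000 bp peak across 14 exons was the longest matrix gene peak called. It scored 157, 212 and 190 in Ctrl and 294, 293 and 303 in Kmt5b sKO (log2 fold change 0.68, SE 0.16, limma adjusted p = 0.000116). Neither gene overlapped between groups, and both lay close to the fold threshold. Without Ctrl replicate 1 they had log2 fold changes of 0.558 and 0.561 and were not called, and Fn1 was also lost without Kmt5b sKO replicate 3, at 0.578. Sparc, a collagen-binding glycoprotein gene covered over 74.3% of its length, summed to 952, 1307 and 999 against 1236, 1271 and 1314, a difference of 0.24 on the log2 scale (SE 0.13, limma adjusted p = 0.109). Without Ctrl replicate 2 the Sparc log2 fold change was 0.384 (limma adjusted p = 2.3e-05), still short of the fold threshold.

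The proteases, inhibitors and crosslinking enzymes were each represented by few peaks. Adamts12, a metalloprotease gene, had a 2000 bp intronic peak that scored 23, 32 and 52 in Ctrl and 78, 111 and 48 in Kmt5b sKO. The peak was called (log2 fold change 1.12, SE 0.27, limma adjusted p = 0.000404) although the groups overlapped. Timp2, a metalloprotease inhibitor gene, was the most covered of the 18, with 3 peaks over 96.1% of its length, the longest of 47400 bp. Its sum was 2397, 2956 and 2372 in Ctrl and 2516, 2698 and 2806 in Kmt5b sKO, a difference of 0.06 on the log2 scale (SE 0.12, limma adjusted p = 0.713). The long Timp2 peak also contained the gene Cep295nl. Loxl1, a lysyl oxidase gene, had a 1200 bp peak with scores of 30, 46 and 35 against 59, 29 and 28, which overlapped (log2 fold change −0.00, SE 0.34).

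**Figure D5:**
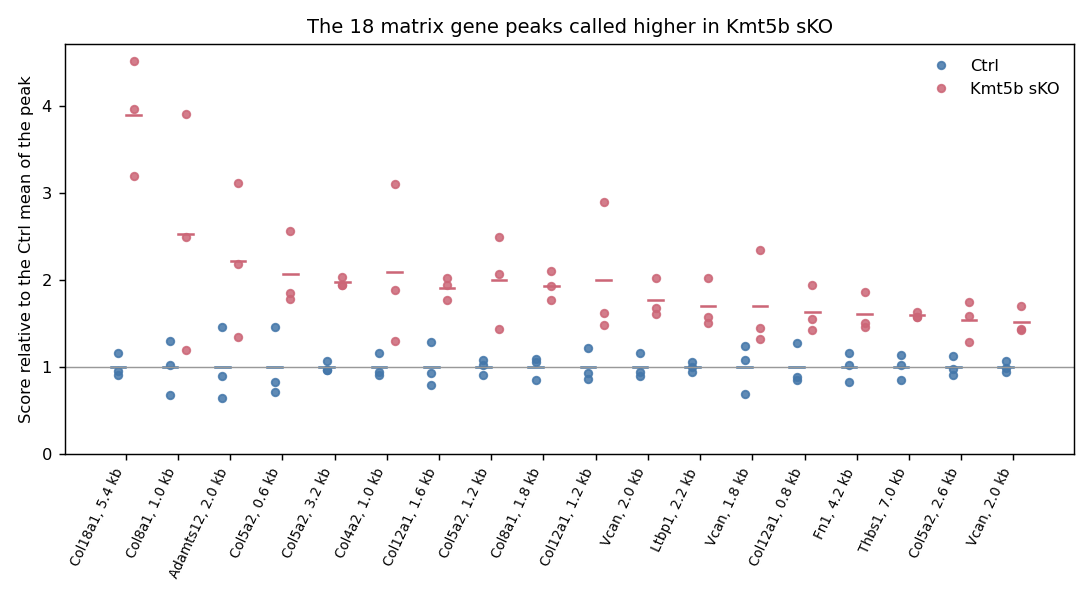
Scores of the 18 matrix gene peaks called higher, each divided by its Ctrl mean, with points for single libraries and lines for group means. Genotypes separate in 16 peaks and overlap in the 1.0 kb Col8a1 peak and the Adamts12 peak, and Col18a1 stands furthest from 1.

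The 34 autosomal genes without a peak came from all of the groups above. Col1a1, Col1a2, Col6a1, Col6a2, Col6a3, Dcn, Lum, Postn, Lox, Eln, Nid1, Nid2 and Tnc were among them, and no peak of another gene overlapped any of the 34. Of the autosomal matrix genes, 34.6% carried a peak, against 36.6% of 20755 other protein-coding genes. Weighting the other genes to the lengths of the matrix genes gave 52.4%, or 27.2 genes where 18 were counted. Up to 20 kb of gene length, 2 of 7 matrix genes had a peak and 21.3% of other genes did. Between 20 and 50 kb, 3 of 15 matrix genes had a peak where 46.3% of other genes did, and between 50 and 100 kb 3 of 13 did against 59.6%. From 100 to 200 kb the values were 7 of 11 and 62.7%, and above 200 kb 3 of 6 and 69.2%. Matrix genes with a peak had a median length of 108 kb and those without a peak 50.3 kb. A gene without a peak may still have had signal below the threshold of the peak caller.

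The gene list did not use exons or base composition. Of the 18 called peaks, 3 (Col18a1, Thbs1 and Fn1) overlapped an exon of their gene, against 39 of 67 that were not called. Their median length was 1900 bp against 4200 bp, and exon overlap goes with length, at 17.8% of other gene-body peaks of 200 to 1200 bp, 32.8% from 1400 to 2000 bp and 75.9% from 6000 bp. Across the 85 peaks, Spearman rho of the log2 fold change was −0.43 with length and 0.38 with the share of repeat bases, where the other gene-body peaks gave −0.49 and 0.41. With GC content it was −0.52, against −0.09 in the other gene-body peaks. These correlations are descriptions, since peaks of a gene share its base composition and all peaks share 6 libraries, and 4 genes held 55 of the 85. Position along the gene had a rho of 0.00. Within those 4 genes, Col5a1, Col5a2, Fbn1 and Ltbp1, 5 of 55 peaks were higher, and in the other 14 genes 13 of 30 were.

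The direction of the small differences depended on the scale. Relative to the median peak of each library, 2 matrix gene peaks were higher (background 10.3%), in Col18a1 and Adamts12, and 11 were lower (background 11.9%), 5 in Fbn1 and 2 each in Col5a1, Emilin1 and Ltbp1. The median log2 fold change was then −0.26, and it was −0.19 for the other gene-body peaks. Matrix gene peaks together held 0.555% to 0.563% of the autosomal score in Ctrl and 0.532% to 0.539% in Kmt5b sKO.

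Genes that process or regulate matrix were read from 3 further lists, whose counts stand against the same background of 32.9% of tested peaks higher and 0.883% lower. Of 25 other collagen chain genes, 5 had autosomal peaks, and 5 of their 20 tested peaks (25%) were higher and none lower. The 25 genes were not limited to autosomes, while only autosomal peaks were counted. Col17a1, a hemidesmosomal collagen gene, went from 105, 127 and 110 to 182, 185 and 153. Of 23 genes for collagen folding, modification and processing, 15 had peaks. In these 8 of 37 tested peaks (21.6%) were higher and 1, in the lysyl hydroxylase gene Plod2, was lower. Bmp1, the procollagen C-proteinase gene, held 3 of the 8, and its sum was 618, 704 and 567 in Ctrl and 861, 916 and 967 in Kmt5b sKO, a log2 fold change of 0.54 that was short of the call at the gene level. Mia3, which encodes a collagen export receptor, had 830, 951 and 775 against 628, 815 and 821, and Plod2 had 959, 1344 and 1011 against 996, 1067 and 947, and neither was called as a gene. Of 18 TGF-beta signalling genes 14 had peaks, with 8 of 47 tested peaks (17.0%) higher and none lower. Among these, the ligand gene Tgfb1 went from 67, 55 and 63 to 130, 108 and 119. The feedback inhibitor gene Smad7 went from 1469, 1534 and 1294 to 2216, 2263 and 2371. The shared signal transducer gene Smad4 had 1396, 1549 and 1325 against 1317, 1418 and 1341 and was not called. The 3 lists had medians of 0.11, 0.19 and 0.18 on the log2 scale. All tested peaks had 0.35 and the other gene-body peaks 0.26, and the lists were not matched for peak length. With scores summed per gene, 3 of 5, 5 of 15 and 5 of 14 genes were higher (background 29.3%). None was lower (background 0.262%).

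Because fibroblasts express many of these genes, marker genes of other cell types were read from the same table. Of 10 satellite cell and myoblast markers, 6 had peaks. Their summed score was 9519 to 11141 in Ctrl and 11079 to 11886 in Kmt5b sKO. Sdc4 went from 166, 109 and 149 to 303, 286 and 329. It was the only one of the 6 called higher (log2 fold change 1.13, SE 0.16, limma adjusted p = 1.33e-10). Pax7, Myod1, Megf10, Des and Itga7 were not called. Of 12 fibro-adipogenic progenitor and fibroblast markers 3 had peaks. Gsn went from 185, 317 and 213 to 377, 391 and 353 and was called higher (log2 fold change 0.68, SE 0.15, limma adjusted p = 5.05e-05). Cxcl12 scored 301, 290 and 260 against 326, 382 and 342 and was not called. The listed gene Tcf4 encodes an E protein, whereas the fibroblast marker protein called TCF4 is the product of Tcf7l2, so Tcf4 is not read as a marker here. Its sum was 8070 to 8191 in Kmt5b sKO, against 8452, 10657 and 8767 in Ctrl, and it was not called. The markers Pdgfra, Pdgfrb, Ly6a, Thy1, Dpt, Cd34, Osr1, Pi16 and Tcf21 had no peak. Neither did the satellite cell and myoblast markers Myf5, Vcam1, Cdh15 and Calcr. Of 6 endothelial markers, Pecam1 and Tek had peaks, and their sum was 178 to 193 in Ctrl and 290 to 364 in Kmt5b sKO. Both genes were called higher, at log2 fold changes of 0.62 and 1.13 (background 29.3% of genes). In the muscle, fibroblast and endothelial lists, 2 of 24, 2 of 31 and 2 of 4 tested peaks were higher (background 32.9%). The fibroblast count includes Tcf4, which held 1 of the 2 and the only peak called lower. None of 6 immune markers had a peak. A peak marks hybrids and not the number of cells, and the part of other cell types in the matrix gene values was not tested.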

How the data were processed

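S9.6 signal was compared between 3 Ctrl and 3 Kmt5b sKO libraries, grouped by the genotype label. The authors aligned reads with STAR 2.7.3a to mm10, removed duplicates with Picard 2.21.7, called peaks with Epic2, unified them and assigned each to the gene with the longest overlap. The deposited score per peak was scaled by the authors to Drosophila spike-in reads and rounded, so it was not treated as a read count; the reads behind a score are unknown.

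Autosomal peaks with a mean score over 30 were fitted with limma 3.58.1 (lmFit, eBayes with trend) on log2(score + 1), two-sided, with Benjamini-Hochberg adjustment over all 25815 peaks. Gene values were sums over the peaks of a gene, fitted likewise over 8003 genes. The prior degrees of freedom were infinite, so each variance came from the trend with score, and the pseudocount understates changes of low peaks. Coordinates are as in the table, whose starts may lie 1 base before the browser position. GC content and repeats came from GRCm38, and exons from GENCODE vM21.

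In simulated data, 77.9% of 199 peaks changed by 1 on the log2 scale were recovered among 25150, and 94% of 199 genes among 7877. There 15 unchanged peaks and 18 unchanged genes were also called. The simulated noise was independent and followed the variance trend, with gains and losses balanced. These rates therefore cannot check the variance assumption of the fit. Members and lists were chosen with earlier results of these data known. Named genes were the 10 called peaks with the smallest adjusted p, the gene with the highest sum in each of 8 role groups, and the largest gains and losses, and any member could be named with its scores. Alternatives covered the pseudocount, filters, library scaling, variance trend, replicate block, fold threshold and each library left out. Fits ran in R 4.3.3, and summaries and figures in Python 3.11.15 with pandas 2.3.3, scipy 1.17.1, numpy 2.4.6 and matplotlib 3.10.9.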

Additional observations from a re-analysis of the deposited data

Results flagged for a closer look

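Bgn, the gene of the small proteoglycan biglycan, lies on the X chromosome, which the comparisons above leave out. It carried 1 gene-body peak of 2800 bp, which scored 65, 55 and 50 in Ctrl and 96, 72 and 84 in Kmt5b sKO. All 3 Kmt5b sKO libraries lay above all 3 Ctrl libraries, and the ratio of the means was 1.48. An exact permutation test, two-sided, gave p = 0.1, the smallest that 3 libraries against 3 allow. On the log2 scale the change was 0.56, against a median of 0.23 over the 399 peaks of X.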

How the results depend on the processing

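The scaling of the libraries changed most calls. The number of matrix gene peaks higher was 11 when libraries were scaled to equal totals, 2 when each was centred on its median and 2 after quantile normalization, and the number lower was 2, 11 and 7. Their median log2 fold change turned to −0.00818, −0.264 and −0.0435, while the median of all tested peaks was 0.15, −0.11 and −0.01. The number of genes higher was 5, 4 and 2, with medians of 0.171, 0.0271 and 0.178. At the gene level Col18a1 and Col12a1 were called under each scaling. With a mean score over 100 there were 4 peaks higher and a median of 0.108. With a fold change over 2 there were 4 peaks and 3 genes higher, and with no fold change minimum 1 peak was lower, in Fbn1. Leaving out each library gave 14 to 21 peaks higher and 0 to 1 lower, the latter without Kmt5b sKO replicate 1. The replicate block gave 18 peaks and 8 genes higher and none lower, and the correlations of deviations between same-numbered libraries ran from −0.0272 to 0.0108, so the numbers were not taken to pair the libraries. Of the values for single genes and peaks, 408 kept their call, 78 lost it and 1 gained it. Of the 408, 22 changed sign, in 8 genes that were not called and lay within 0.244 of 0 on the log2 scale (Col3a1, Col5a1, Fbn1, Hspg2, Loxl1, Ltbp1, Sparc and Timp2). The spike-in reads were not used here, and with 3 libraries a side no exact test can pass 0.1. Low peaks such as those of Loxl1 and Col4a2 had standard errors above 0.3, so changes under the fold threshold were not detectable there.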
